A study of Mus musculus with 12 samples.

Results

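Klf2 (ENSMUSG00000055148), Klf4 (ENSMUSG00000003032) and Klf6 (ENSMUSG00000000078) encode 3 transcription factors of the Krüppel-like factor (KLF) family, and their RNA was followed in all 12 libraries of a culture experiment. They are 3 of the 56748 gene IDs in the count table, taken by ID, and all 3 passed the filter on low counts, which left 14338 genes. The genes were selected on their values in these same libraries, with no single comparison named as the basis, so their levels and fold changes are given below as a description, with no p-value. Where one of them is said to be past the threshold of the fit over all genes, that rests on the same values and nothing is read from it. The cells were mouse adipose-tissue mesenchymal stem cells, stromal cells isolated from fat, in medium with serum and antibiotics. They were grown as 3D spheroids, that is, as cell aggregates, or in 2D as single attached cells. The groups, named here by culture and time, were 3D 24 h, 3D 0 h, 2D 24 h and 2D 0 h, with 3 libraries in each. The labels name no strain, age or number of animals, and do not say whether the libraries of a group came from separate cultures, so the spread between them may be technical. How long the spheroids had existed at 0 h is not stated. Defining markers of stromal, endothelial and blood cells were not analysed here, because the tables used do not pair the other gene IDs with symbols.

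KLF proteins bind GC-rich and CACCC-containing DNA through zinc fingers at the C-terminal end and can activate or repress their targets. KLF2 is known for its induction by fluid shear stress in endothelial cells, through the kinase ERK5 and MEF2 factors, and for holding T cells in a resting state. In mouse preadipocytes KLF2 restrains fat cell differentiation by repressing Pparg, whereas KLF4 acts early in that process by activating Cebpb, and KLF6 promotes it by repressing the preadipocyte gene Dlk1. KLF4 is also one of the factors used to reprogram fibroblasts to pluripotency, and KLF6 was described as a growth suppressor that induces the cell cycle inhibitor Cdkn1a.

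Library totals ran between 10182590 and 17109609 expected counts. Libraries of a group correlated at 0.968 to 0.984 across genes (log2 CPM, counts scaled to library size by TMM), against 0.895 to 0.958 for libraries of different groups. Being computed across genes, which are not independent, these values only describe the libraries. The counts of the 3 KLF genes were whole in every library, as they would be with no reads divided between genes. The lowest of them, 182 counts for Klf4 in 3D 24 h replicate 3, had an exact 95% Poisson interval of 157 to 210. The highest, 4096 counts for Klf6 in 2D 0 h replicate 2, had an interval of 3972 to 4223, and both intervals cover counting error only.

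The promoters are shown because, by counts, Klf2 and Klf6 differed between cultures at 0 h while Klf4 differed at 24 h, as described below. In values corrected for gene length, Klf6 also differed at 24 h. Whether the promoters relate to these differences was not tested. Each sequence is the 250 bases before the annotated start in RefSeq (build GRCm38.p6), printed 5′ to 3′ on the strand of the gene. The counts were made on GRCm39 and carry no coordinates, so the builds are not mixed. Capitals mark GC boxes (GGGCGG or its reverse complement CCGCCC) and, in Klf2, the motif CTANNNNTAG, where N is any base. This motif is looser than the sites bound by MEF2 factors, whose middle bases are A or T. The Klf2 match, CTAAATTTAG, has A or T at each N, but binding was not measured. The Klf2 window is chr8:72318812-72319061 on the plus strand, the Klf4 window is chr4:55532476-55532725 on the minus strand and the Klf6 window is chr13:5861239-5861488 on the plus strand.
Klf2: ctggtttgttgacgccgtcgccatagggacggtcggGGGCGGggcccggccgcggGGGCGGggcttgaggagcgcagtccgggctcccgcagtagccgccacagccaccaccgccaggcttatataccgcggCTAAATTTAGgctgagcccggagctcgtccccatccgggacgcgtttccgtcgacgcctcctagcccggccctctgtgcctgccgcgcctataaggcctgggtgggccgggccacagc
Klf4: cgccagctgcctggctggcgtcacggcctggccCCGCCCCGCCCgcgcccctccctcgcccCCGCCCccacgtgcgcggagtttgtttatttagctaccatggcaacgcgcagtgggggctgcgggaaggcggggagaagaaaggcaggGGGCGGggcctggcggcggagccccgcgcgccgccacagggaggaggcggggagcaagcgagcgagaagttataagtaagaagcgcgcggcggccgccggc
Klf6: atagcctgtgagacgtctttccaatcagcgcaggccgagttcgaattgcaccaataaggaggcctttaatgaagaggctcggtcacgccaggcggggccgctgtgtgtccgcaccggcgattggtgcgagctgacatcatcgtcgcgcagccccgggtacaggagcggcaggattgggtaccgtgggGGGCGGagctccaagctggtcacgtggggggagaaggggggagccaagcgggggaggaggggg

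All 3 windows were rich in G and C, at 71.2% for Klf2, 74.0% for Klf4 and 64.8% for Klf6. A lower GC content was found in 92.2%, 95.1% and 82.3% of the 32851 promoter windows in the table. GC boxes, the sites of SP and KLF proteins, were counted 2 times in Klf2, 4 times in Klf4, where 2 of them overlap by 1 base, and 1 time in Klf6, and 32.7% of all windows hold at least 1. The motif CTANNNNTAG, which reads the same on both strands, was found only in the Klf2 window among these 3, starting 118 bases before the start, and 3.2% of all windows hold it. That share counts windows with any base at each N, so it is not a share of MEF2 sites. The E-box CACGTG, also the same on both strands, was present 1 time each in Klf4 and Klf6 and is held by 6.02% of windows. The CCAAT box (CCAAT or ATTGG) was present 4 times in Klf6 and in neither of the other windows, against 33.9% of all windows. The motif TATAA (or TTATA) was matched 2 times in Klf2 and 2 times, overlapping, in Klf4, against 22.8% of windows. A CACCC box (CACCC or GGGTG) was matched 1 time in Klf2, against 52.0% of windows. A match says only that these letters are present, and binding was not measured.

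Klf6 was the most abundant of the 3 genes per gene length in each of the 12 libraries, followed by Klf2 and then Klf4. In TPM (a transcript's scaled share of the library, corrected for gene length), Klf6 averaged 180 ± 19.2 in 3D 24 h, 64.8 ± 9.48 in 3D 0 h, 138 ± 4.18 in 2D 24 h and 176 ± 20.2 in 2D 0 h (SD, n = 3). Klf2 averaged 72.1 ± 19.8 TPM in 3D 24 h, 45.1 ± 6.35 TPM in 3D 0 h, 80.4 ± 2.46 TPM in 2D 24 h and 98.4 ± 5.03 TPM in 2D 0 h (SD, n = 3). Klf4 averaged 11.5 ± 3.29 TPM in 3D 24 h, 15.7 ± 1.36 TPM in 3D 0 h, 24.97 ± 3.59 TPM in 2D 24 h and 17.1 ± 4.31 TPM in 2D 0 h (SD, n = 3). Klf2 and Klf6 shared their lowest group, 3D 0 h, whereas Klf4 was lowest in 3D 24 h and highest in 2D 24 h. In CPM, 2D 24 h and 3D 24 h were neighbours in the order for Klf2 and Klf6 and overlapped, and for Klf4 the overlapping neighbours were 2D 0 h and 3D 0 h. The remaining neighbours in each order did not overlap. Among the tested genes Klf6 stood between the percentiles 79.7 and 93.2 of TPM in a library, Klf2 between 71.8 and 87.2, and Klf4 between 39.6 and 63.6.

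**Figure D1:**
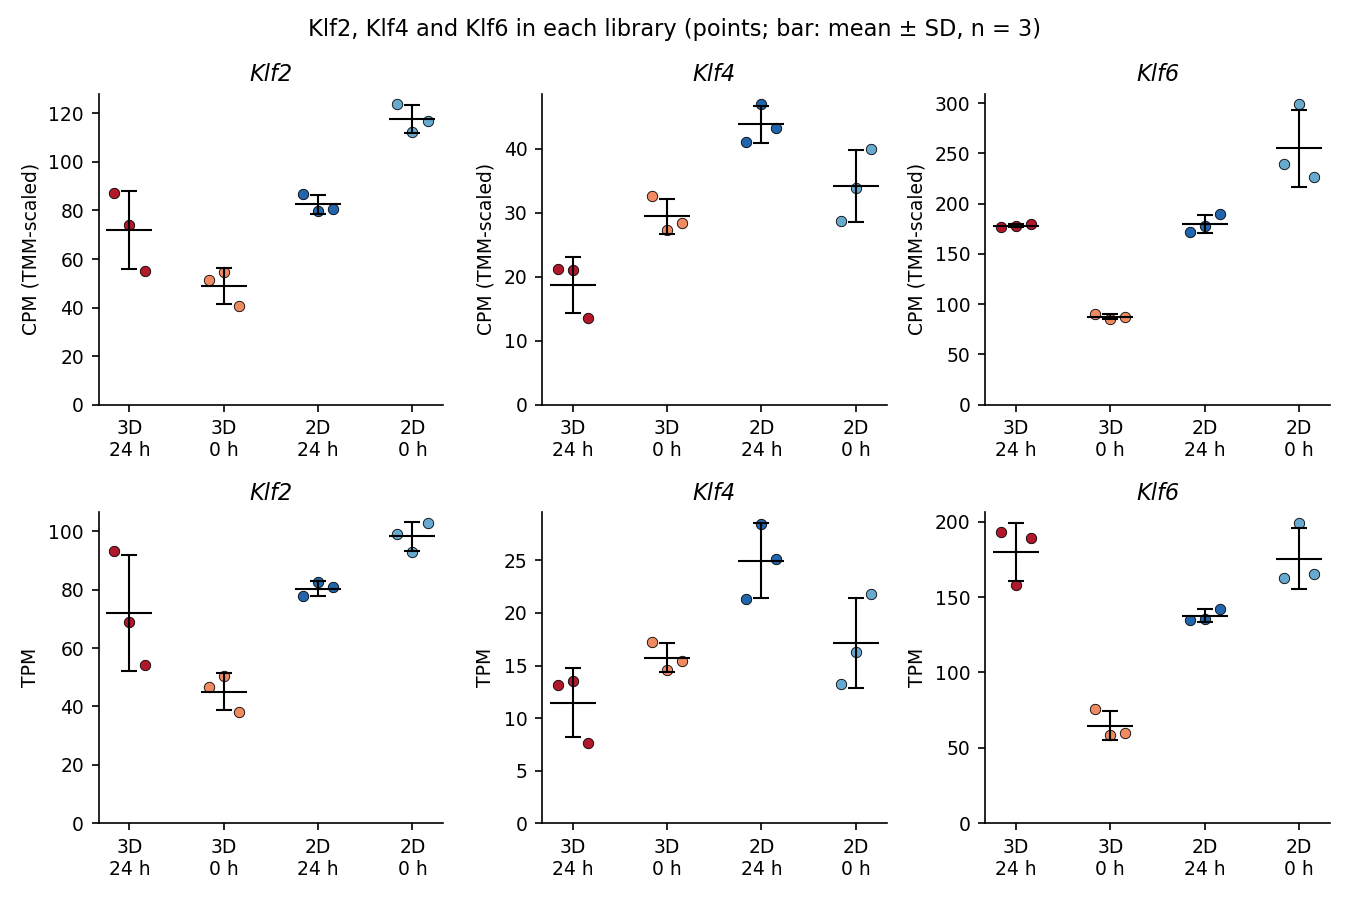
Klf2, Klf4 and Klf6 in each of the 12 libraries, as TMM-scaled CPM (upper row) and as TPM recovered from the deposited log2(TPM + 1) values (lower row), with 1 point per library and the mean ± SD of 3 libraries. Klf2 and Klf6 are lowest in 3D 0 h on both scales, and Klf4 has its lowest mean in 3D 24 h.

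Spheroids were first compared with attached cells at 0 h. Klf6, the repressor of Dlk1, had 89.9, 85.2 and 87.3 CPM in 3D and 239.7, 299 and 226 CPM in 2D. Every 3D library lay below every 2D library, and the fitted difference was 2.92-fold lower in 3D (log2 fold change -1.54 ± 0.11, SE). Klf2, the shear-responsive member, had 51.3, 54.7 and 40.6 CPM in 3D and 124, 112 and 117 CPM in 2D. Here too the groups did not overlap, and Klf2 was 2.41-fold lower in 3D (log2 fold change -1.27 ± 0.15, SE). Klf4, the reprogramming factor, had 32.5, 27.4 and 28.4 CPM in 3D and 28.7, 33.9 and 39.9 CPM in 2D. The libraries of the groups overlapped, and the log2 fold change was -0.22 ± 0.17 (SE), or -0.33 without 2D 0 h replicate 1 and -0.06 without 2D 0 h replicate 3. In bulk RNA, fewer cells that express a gene and less of its RNA per cell cannot be told apart.

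Of all tested genes, 45.8% were past the threshold at 0 h (edgeR, Benjamini-Hochberg adjusted p under 0.05, either direction). Klf2 and Klf6 were among them and Klf4 was not, a count of 2 of 3 from which nothing is read, because the genes were selected on values of these libraries. Only 4.23% of tested genes had a lower log2 fold change than Klf6, and 6.33% had a lower one than Klf2. For Klf4 it was 36.7%, which puts it in the broad middle of the distribution. The median log2 fold change over all tested genes was 0.02. That over the 3 KLF genes, -1.27, is the value of Klf2 itself, and nothing is read from it.

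At 24 h the same comparison gave a different set of values. Klf4 had 21.2, 21.1 and 13.6 CPM in 3D and 41.1, 47.0 and 43.3 CPM in 2D. No library overlapped, and Klf4 was 2.34-fold lower in 3D (log2 fold change -1.23 ± 0.17, SE). Klf2 had 87.1, 73.8 and 55.0 CPM in 3D and 86.8, 79.9 and 80.7 CPM in 2D. The 3D libraries of Klf2 spread around the 2D values, and the log2 fold change was -0.19 ± 0.15 (SE). It was -0.33 without 3D 24 h replicate 1 and -0.01 without 3D 24 h replicate 3, so its size rests on single libraries. Klf6 had 177, 178 and 179.6 CPM in 3D and 172, 178 and 189.9 CPM in 2D. By counts the Klf6 groups coincided, with a log2 fold change of -0.01 ± 0.11 (SE), but the sign stayed negative in only 4 of 20 alternatives and was positive, for example, with library totals (0.11) and in the deposited log2(TPM + 1) values (0.38). In TPM, Klf6 had 193, 158 and 189 in 3D and 135, 136 and 142 in 2D, and every 3D library lay above every 2D library.

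At 24 h, 42.5% of tested genes were past the threshold, and of the 3 KLF genes only Klf4 was, again with nothing read from the count. A lower log2 fold change than that of Klf4 was found for 9.35% of tested genes. The corresponding shares were 38.5% for Klf2 and 49.2% for Klf6. The median log2 fold change over all tested genes was -0.0018. That over the 3 genes, -0.19, is again the value of Klf2 itself, and nothing is read from it.

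**Figure D2:**
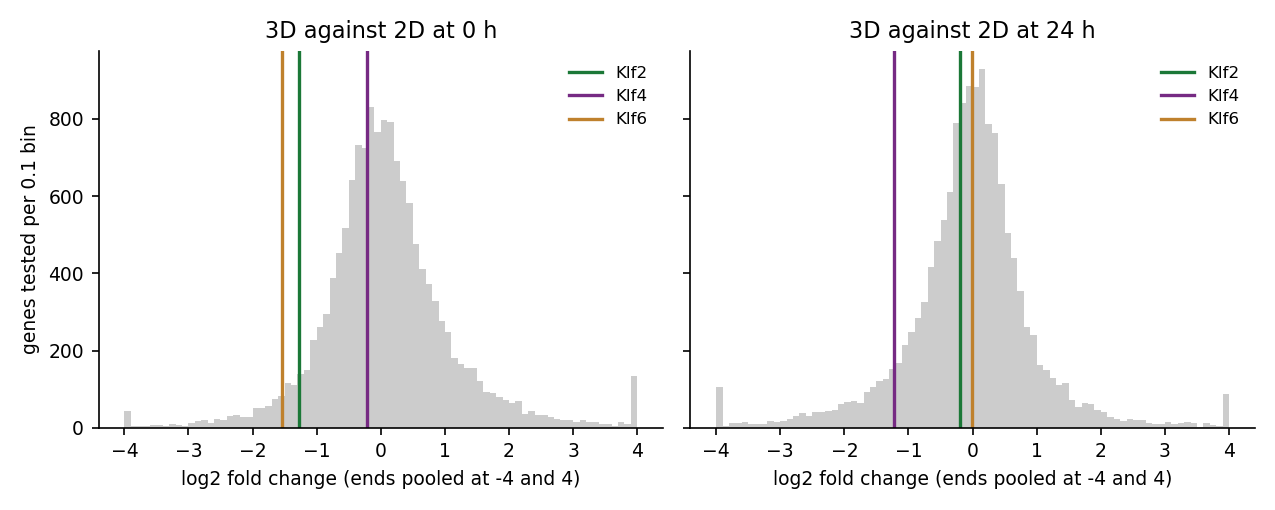
Log2 fold changes of all 14338 tested genes (grey bars, genes per bin of 0.1) for 3D against 2D, at 0 h on the left and 24 h on the right, with vertical lines for Klf2, Klf4 and Klf6. At 0 h Klf2 (-1.27) and Klf6 (-1.54) lie in the lower tail, and at 24 h Klf4 (-1.23) does.

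Changes over 24 h were then set side by side in the 2 cultures. In spheroids Klf6 was 2.04-fold higher at 24 h than at 0 h (log2 fold change 1.03 ± 0.11, SE), with 177 to 179.6 CPM at 24 h and 85.2 to 89.9 CPM at 0 h. In attached cells it was 1.42-fold lower (log2 fold change -0.50 ± 0.11, SE), with 172 to 189.9 CPM at 24 h and 226 to 299 CPM at 0 h. The libraries of the 2 times did not overlap in either culture. Klf2 followed the same directions. It was 1.48-fold higher at 24 h in spheroids (log2 fold change 0.56 ± 0.15, SE), where the lowest library at 24 h, 55.0 CPM, stood just above the highest at 0 h, 54.7 CPM. In attached cells Klf2 was 1.43-fold lower at 24 h (log2 fold change -0.51 ± 0.15, SE), with no overlap. In TPM that Klf2 difference was smaller, at -0.29 on the log2(TPM + 1) scale, and was not past the threshold in limma. The TPM libraries of the 2 times still did not overlap. For this comparison the median over all tested genes was 0.17 on the log2(TPM + 1) scale, against 0.02 by counts.

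The signs for Klf4 were opposite to those of Klf2 and Klf6, but its change in attached cells was not past the threshold. In spheroids Klf4 was 1.57-fold lower at 24 h than at 0 h (log2 fold change -0.65 ± 0.17, SE), and every library at 24 h lay below every library at 0 h. On the log2(TPM + 1) scale the difference was -0.46 and was not past the threshold in limma. In attached cells Klf4 stood at 41.1 to 47.0 CPM at 24 h and at 28.7 to 39.9 CPM at 0 h, so that the CPM values did not overlap, while the TPM values did. The log2 fold change was 0.35 ± 0.17 (SE) and not past the threshold. It was 0.23 and not past the threshold without 2D 0 h replicate 1, the library with the lowest 0 h value, and 0.50 and past it without 2D 0 h replicate 3, the one with the highest.

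Over 24 h, 34.4% of tested genes were past the threshold in 2D and 48.5% in 3D. The 3 KLF genes counted 2 in 2D, namely Klf2 and Klf6, both lower at 24 h. In 3D all 3 counted, with Klf2 and Klf6 higher and Klf4 lower. Nothing is read from either count. The comparisons over time share libraries with those between cultures, so they are not separate evidence.

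The last comparison was the 3D against 2D change at 24 h minus that at 0 h. It was 1.53 ± 0.15 for Klf6, 1.07 ± 0.21 for Klf2 and -1.01 ± 0.24 for Klf4 (log2, SE). All 3 were past the threshold, as were 39.1% of tested genes, and nothing is read from that count either. The log2 difference between the times was thus positive for Klf2 and Klf6 and negative for Klf4. A lower value was found for 94.4% of tested genes in the case of Klf6, 89.5% for Klf2 and 18.8% for Klf4.

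**Figure D3:**
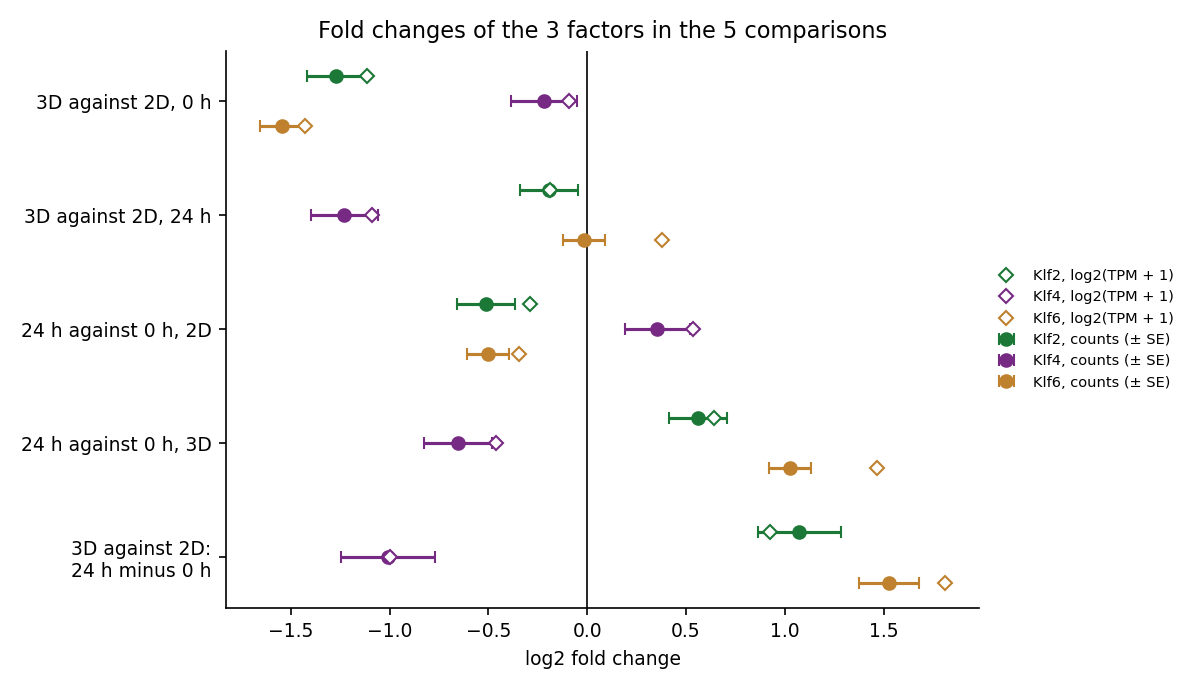
Log2 fold changes of Klf2, Klf4 and Klf6 in the 5 comparisons, from counts (filled circles ± SE, edgeR) and from deposited log2(TPM + 1) values (open diamonds, differences of group means). Klf4 lies opposite Klf2 and Klf6 in both comparisons over time and in the last one, and Klf6 has a diamond at 0.38 against a circle at -0.01 for 3D against 2D, 24 h.

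The makeup of the trio within each library does not depend on how libraries are scaled to each other. Klf4 made up 4.39%, 5.64% and 3.05% of the summed TPM of the 3 genes in 3D 24 h, and 9.12%, 11.6% and 10.1% in 2D 24 h. It made up 12.3%, 11.8% and 13.6% in 3D 0 h, and 4.83%, 5.29% and 7.51% in 2D 0 h. The Klf4 share was therefore lower in 3D at 24 h and higher in 3D at 0 h than in 2D of the same time, with no overlap. The shares of the 3 genes make up a whole, so they do not vary independently. At 0 h the TPM of Klf4 itself overlapped between the cultures, with a log2(TPM + 1) difference of -0.09. Klf2 and Klf6 were lower in 3D at that time. In the summed expected counts the same held, at 6.89% ± 1.23 in 3D 24 h and 14.3% ± 0.97 in 2D 24 h, and at 17.8% ± 1.23 in 3D 0 h and 8.46% ± 1.71 in 2D 0 h (SD, n = 3).

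The Klf6 share ran the other way at both times, again with no overlap, at 68.5% ± 5.98 in 3D 24 h and 56.6% ± 1.47 in 2D 24 h, and at 51.5% ± 3.60 in 3D 0 h and 60.2% ± 3.88 in 2D 0 h (SD, n = 3). The ratio of Klf6 to Klf4 TPM lay between 11.7 and 24.7 in 3D 24 h and between 4.76 and 6.32 in 2D 24 h. At 0 h it lay between 3.89 and 4.39 in 3D and between 7.59 and 12.2 in 2D. The Klf2 share was 27.1% ± 4.97 in 3D 24 h and 33.1% ± 0.49 in 2D 24 h, and 36.0% ± 4.23 in 3D 0 h and 33.9% ± 3.23 in 2D 0 h (SD, n = 3). This Klf2 share of the summed TPM overlapped between the cultures at 0 h but not at 24 h. Its share of the summed expected counts overlapped at 24 h as well, at 26.6% ± 4.19 in 3D 24 h and 26.9% ± 1.73 in 2D 24 h (SD, n = 3). The sum of the 3 genes was 264 ± 31.5 TPM in 3D 24 h and 243 ± 7.88 TPM in 2D 24 h, and 126 ± 13.2 TPM in 3D 0 h and 291 ± 16.7 TPM in 2D 0 h (SD, n = 3).

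**Figure D4:**
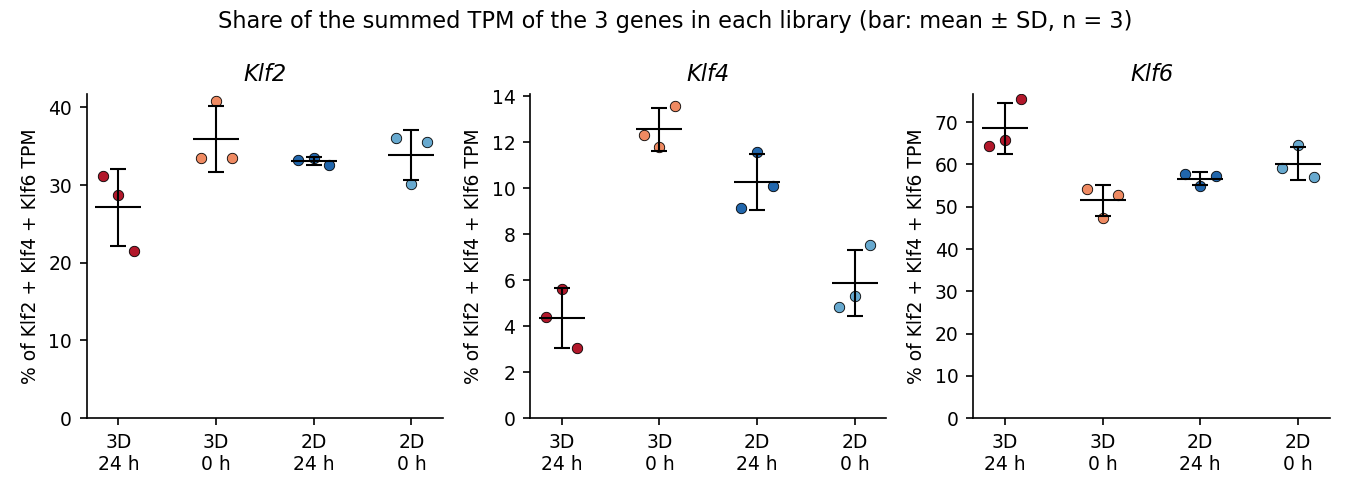
Share of Klf2, Klf4 and Klf6 in their summed TPM, in percent, with 1 point per library and the mean ± SD of 3 libraries. The Klf4 share lies between 3.05% and 5.64% in 3D 24 h and between 9.12% and 11.6% in 2D 24 h, and between 11.8% and 13.6% in 3D 0 h and 4.83% and 7.51% in 2D 0 h.

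Within 3D 24 h, replicate 3 had the lowest CPM for Klf2, 55.0 CPM, and for Klf4, 13.6 CPM, but not for Klf6, where it had 179.6 CPM.

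For Klf6 the 3D and 2D libraries at 24 h overlapped in counts but not in TPM, and the 2 tables were therefore compared. The ratio of count to TPM gives the effective length used for a gene in a library, here set against the median of the 9155 genes averaging 10 CPM or more. Being computed from the same counts and TPM, its shift for Klf6 largely restates their difference and is not separate evidence. For a gene with several transcripts this length depends on which of them the reads were assigned to. The relative effective length of Klf6 was -0.51, -0.34 and -0.54 (log2) in 3D 24 h, and -0.23, -0.03 and -0.03 in 2D 24 h. It was -0.29, 0.01 and 0.04 in 3D 0 h, and -0.15, -0.08 and -0.14 in 2D 0 h. The 3D libraries at 24 h were all below the others, and the nearest was 3D 0 h replicate 1. The mean for 3D minus 2D at 24 h was -0.37 (log2), a change of -22.6% in length, and 96.5% of the 9155 genes had a smaller absolute shift. The same shift was -0.0024 for Klf2 and -0.07 for Klf4, with overlapping libraries for both. Transcripts of these genes are not given separately, so which Klf6 transcripts were counted was not tested.

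**Figure D5:**
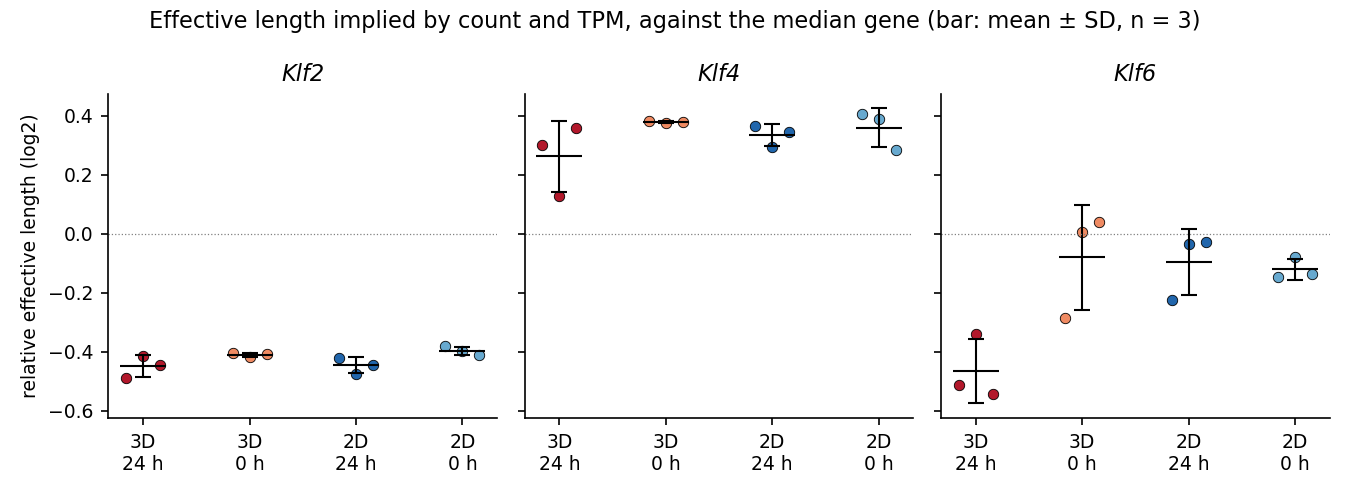
Relative effective length (log2 of count over TPM, minus the median of 9155 genes in that library) of Klf2, Klf4 and Klf6, with 1 point per library and the mean ± SD of 3 libraries. Klf6 lies between -0.54 and -0.34 in 3D 24 h, below its values in the other groups.

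The genes with the most similar profiles were sought by Pearson's correlation of log2 CPM over the 12 libraries, among 10030 other genes whose highest group averaged 10 CPM or more. The libraries fall into 4 groups, so the correlation mainly reflects the pattern of group means and is a description. Closest to Klf6 was ENSMUSG00000022656 (r = 0.988), at 71.7 ± 5.84 CPM in 3D 24 h, 37.4 ± 1.01 CPM in 3D 0 h, 75.1 ± 2.52 CPM in 2D 24 h and 114 ± 16.4 CPM in 2D 0 h (SD, n = 3). Closest to Klf2 was ENSMUSG00000022346 (r = 0.967), at 74.4 ± 15.002 CPM in 3D 24 h, 36.9 ± 2.81 CPM in 3D 0 h, 109.5 ± 3.83 CPM in 2D 24 h and 188 ± 7.84 CPM in 2D 0 h (SD, n = 3). Both had their lowest level in 3D 0 h and their highest in 2D 0 h. Closest to Klf4 was ENSMUSG00000022469 (r = 0.955), at 3.57 ± 0.96 CPM in 3D 24 h, 6.47 ± 1.31 CPM in 3D 0 h, 15.4 ± 1.76 CPM in 2D 24 h and 9.25 ± 0.95 CPM in 2D 0 h (SD, n = 3). Correlations above 0.9 numbered 320 for Klf6, 132 for Klf2 and 67 for Klf4. Ranked by likeness to Klf6, Klf2 came 404th and Klf4 4589th, and ranked by likeness to Klf2, Klf6 came 225th and Klf4 3165th of 10030.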

How the data were processed

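The authors deposited expected counts per gene, estimates that need not be whole, and log2(TPM + 1) values, from which TPM was recovered here. RNA was prepared with a SMART-seq low-input kit and stranded mRNA libraries, per the labels' protocols. FastQC 0.11.9, STAR, RSEM and build GRCm39 stand in the submitters' processing notes. The annotation was not given in the sources used here. Columns labelled day 0 and day 1 were read as 0 h and 24 h.

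Counts were rounded, filtered with edgeR's expression filter (minimum count 10) and scaled by TMM in R 4.3.3 with edgeR 4.0.16. Quasi-likelihood models had 1 term per group over 12 libraries (8 residual degrees of freedom), and p-values were adjusted over 14338 genes by the Benjamini-Hochberg method. SE is the absolute log2 fold change over the square root of the F statistic. Alternatives used limma 3.58.1 and DESeq2 1.42.0. The fit was also run on simulated counts with known changes in far fewer genes than were called here. That run does not show how the fit does with changes as widespread as these, and no result above rests on it.

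The genes, lists and alternatives were chosen with earlier results of these data known. Of the planned lists, 136 symbols were not tested, because no table used pairs the other IDs with symbols. The genes named are the 3 KLF genes and, for each, the ID with the highest correlation (the rule allowed up to 2). Motifs were chosen after the promoters had been seen. The 3D against 2D groups share replicate numbers, but same-numbered libraries did not deviate together, so they were not treated as pairs. Their correlations were -0.23 to 0.05, against -0.10 to 0.19 for differently numbered libraries of different groups. A pairing that does not follow the numbers would not be seen this way. No replicate pair agreed within sampling noise (chi-square per degree of freedom at least 4.56).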

Additional observations from a re-analysis of the deposited data

Results flagged for a closer look

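Several values ran in opposite directions in 2 settings with no overlap of libraries in either, which was the rule for listing them here. How many of the 14338 tested genes meet the same rule was not counted, so nothing is read from it. For these genes, selected on their values, the difference is given as a description (it was not tested for the shares). The change over 24 h was opposite in spheroids and attached cells for Klf6, with a difference of 1.53 (log2, counts) or 1.81 on the log2(TPM + 1) scale, for Klf2, with 1.07 or 0.93, and for Klf4 by counts, with -1.01. In attached cells the change over 24 h was not past the threshold for Klf4 by counts (0.35) or for Klf2 on the log2(TPM + 1) scale (-0.29). For Klf6 in TPM, 3D also lay above 2D at 24 h and, conversely, below 2D at 0 h, with the same difference of 1.81, while by counts the groups overlapped at 24 h. The Klf4 share of the summed TPM was lower in 3D at 24 h and higher in 3D at 0 h, a difference between the times of -12.6 percentage points. The Klf6 share was higher in 3D at 24 h and lower in 3D at 0 h, a difference of 20.6 percentage points. Both shares are parts of the same sum, so they are not separate results. The TPM of Klf4 itself overlapped between the cultures at 0 h.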

How the results depend on the processing

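Each of the 15 log2 fold changes of the 3 genes was recomputed under 20 alternatives, and 14 kept their direction in all of them. The exception was Klf6 in 3D against 2D at 24 h, which moved from -0.01 to 0.0501 with upper-quartile scaling, to 0.11 with library totals and to 0.38 in the log2(TPM + 1) as well as the log2(TPM + 0.1) values, where it passed the threshold. Of the 300 recomputed values, 280 moved by less than 1 SD between replicates. Each of the 12 libraries was left out in turn, also where it lay outside the groups compared. Such a fit keeps all libraries of those groups, so little change could arise, and both counts include these fits. In limma on log2(TPM + 1) and log2(TPM + 0.1) values, the change over 24 h in 2D was -0.287 and -0.29 for Klf2, no longer past the threshold, and 0.54 and 0.56 for Klf4. For Klf6 in 2D it was -0.34 on log2(TPM + 1). The change of Klf6 over 24 h in 3D was 1.11 with library totals and 1.47 and 1.48 in the 2 TPM fits, and its difference between the times was 1.81 and 1.82. Leaving out 1 library moved Klf2 in 3D against 2D at 24 h between -0.33 and -0.01, Klf4 at 0 h between -0.33 and -0.06 and Klf4 over 24 h in 2D between 0.23 and 0.50. For Klf6 it gave 1.02 to 1.08 for the change in 3D and 1.40 to 1.62 for the difference between the times. Klf4 over 24 h in 3D was past the threshold by counts but not in either TPM fit (-0.46 and -0.50). Library totals moved the median log2 fold change of all genes to 0.12 in 3D against 2D at both times, upper-quartile scaling to 0.14 at 0 h, and log2(TPM + 1) to 0.17 over 24 h in 2D. With the replicate number as a block, 6127 genes were called between cultures at 0 h, against 6564 without it, and 5681 at 24 h, against 6091, and no call of the 3 genes changed. Only 1 of 12 libraries correlated best with its own number. The ratio of Klf6 to Klf4 from expected counts, chosen after seeing the data, was -1.33 (log2, 3D against 2D) for 0 h and 1.25 for 24 h, against -1.35 and 1.54 in TPM. With 3 libraries a group, the level of Klf2 in 3D at 24 h (55.0 to 87.1 CPM) is imprecise.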
